A study of Arabidopsis thaliana with 24 samples.

Results

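MCCA, MCCB and IVD are nuclear genes for 2 enzymes of leucine breakdown in mitochondria. IVD encodes isovaleryl-CoA dehydrogenase, and MCCA and MCCB encode the biotin-carrying and the other subunit of 3-methylcrotonyl-CoA carboxylase. Each gene had 1 probe set listing it alone, so the genes were measured by 3 of the 13513 single-gene probe sets on the array (263118_at for MCCA, AT1G03090; 253279_at for MCCB, AT4G34030; 252570_at for IVD, AT3G45300). No probe set that lists several genes named any of them.

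Leucine is first transaminated, and the resulting keto acid is oxidised to isovaleryl-CoA by the branched-chain keto acid dehydrogenase complex. IVD turns isovaleryl-CoA into 3-methylcrotonyl-CoA and hands its electrons to the electron-transfer flavoprotein, from which a dedicated oxidoreductase passes them to ubiquinone. The carboxylase acts on the product of IVD, and its MCCA and MCCB subunits work in one complex. In leaves the pathway is known for feeding respiration when sugars run short, and its genes are raised in extended darkness and sugar starvation.

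The rosettes came from Arabidopsis thaliana, genotype Columbia-0, grown on soil at 20 °C under 12 h of light per day. The light level given for all samples was 130 µmol. At 4 weeks, 4 h into the light period, plants were moved to 20 °C (the control), 17, 14, 12, 10 or 8 °C, and they were frozen 78 h or 6 h later. Both harvests fell 10 h into the light period. No transgene or mutation is named in the labels, and each sample pooled 3 rosettes. The design has 12 groups, 1 for each temperature at each harvest, and 2 one-colour arrays per group, A and B, which makes 24 arrays. The labels do not say whether A and B came from separate batches of plants, so the p-values measure the spread between these samples, which may be technical. The protocol mentions typically at least 5 replicate samples, and how these relate to the 2 arrays was not settled.

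Values are deposited signals on the log2 scale, between 3.87 and 14.81 over all arrays. They were fitted in limma with 1 mean per group, and p-values were adjusted over all 22746 plant probe sets with a threshold of 0.05. The slope is the linear contrast over the 6 group means in log2 per 10 °C of cooling, so that a negative slope means a lower signal in colder plants. All arrays held high signal for the 6 measured rosette markers of 8 listed (PSAN, PSAE-1 and others, mean log2 signals of 13.1 to 14.4). Of the 3 measured root markers the root hair genes EXPA7 and EXPA18 lay near 5.97 and 5.56, and the beta-glucosidase gene PYK10 lay between 7.09 and 10.00. Flower and seed markers had no single-gene probe set and were not analysed here. In whole rosettes, fewer cells of a type and less RNA per cell cannot be told apart.

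IVD, whose enzyme acts before the carboxylase, fell with cooling at 78 h and showed no slope past the test at 6 h. MCCA fell at both harvests. MCCB fell at 6 h, by a call at the threshold when the letter was left out of the fit, and its 78 h slope did not pass. At 78 h the slopes were -0.40 ± 0.07 for IVD, -0.56 ± 0.13 for MCCA and -0.13 ± 0.15 for MCCB (log2 per 10 °C of cooling, SE). At 6 h they were -0.05 ± 0.07 for IVD, -0.72 ± 0.13 for MCCA and -0.49 ± 0.15 for MCCB. In limma, 12.1% of all probe sets passed the test at 78 h and 6.78% fell, while 2 of the 3 leucine genes fell. At 6 h, 11.0% passed and 6.15% fell, while 2 of the 3 fell. The median slope over all probe sets was 0.02 at 78 h and 0.01 at 6 h. The 3 genes had a median of -0.40 at 78 h and -0.49 at 6 h.

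**Figure D1:**
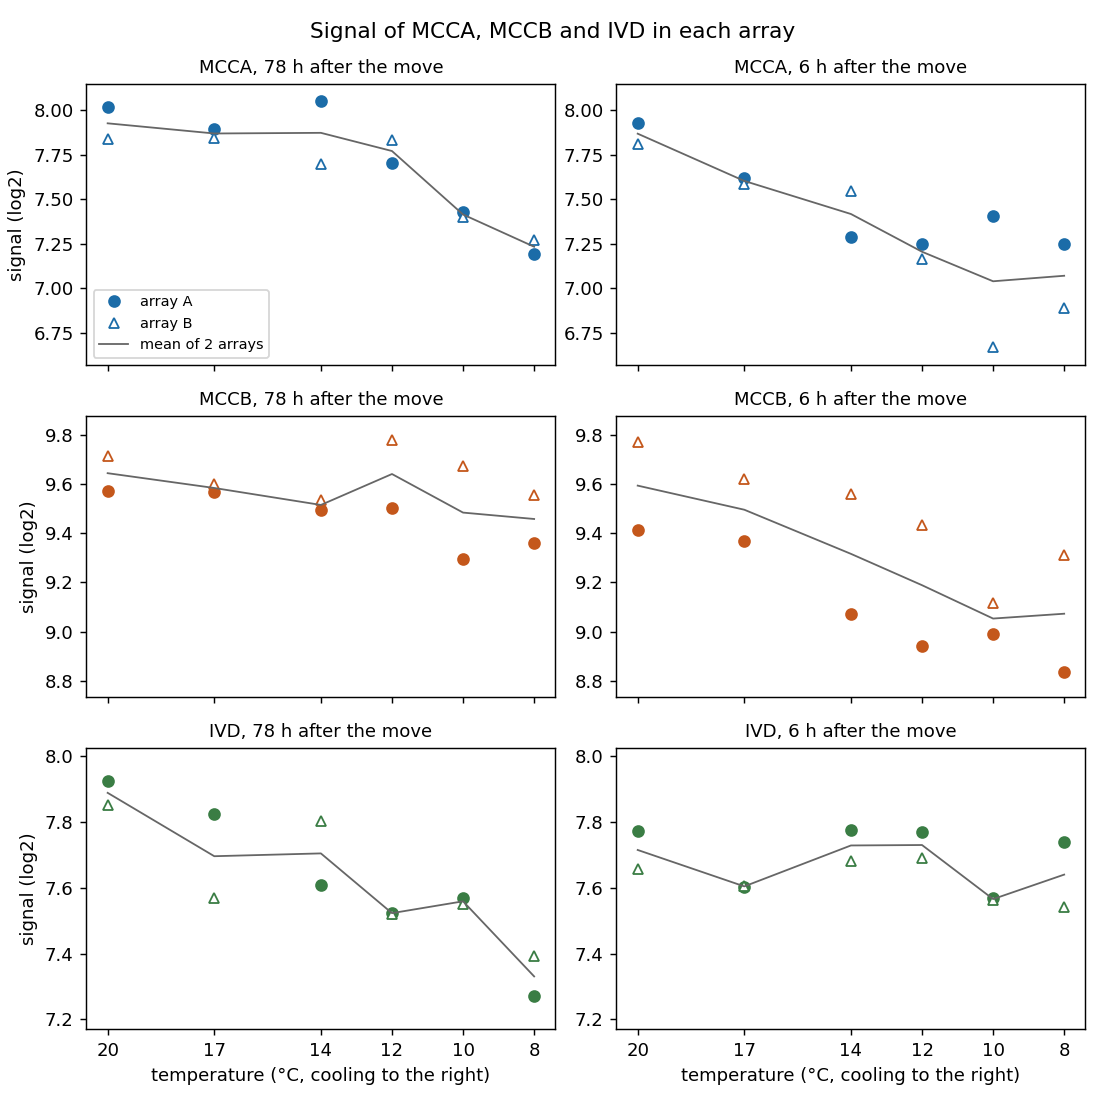
Log2 signal (vertical axis) of MCCA, MCCB and IVD against temperature (horizontal axis, cooling to the right) at 78 h (left) and 6 h (right). Filled circles are A arrays, open triangles are B arrays and lines join the means of 2 arrays. MCCA declines in both columns, MCCB mainly at 6 h (9.07 at 8 °C and 9.59 at 20 °C) and IVD mainly at 78 h. The difference in slope between harvests did not pass for MCCB or IVD without the letter in the fit (limma adjusted p = 0.571 and 0.0730).

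IVD was measured at 78 h with signals (A and B arrays) of 7.92 and 7.85 at 20 °C, 7.82 and 7.57 at 17 °C, 7.61 and 7.80 at 14 °C, 7.52 and 7.52 at 12 °C, 7.57 and 7.55 at 10 °C, and 7.27 and 7.39 at 8 °C. Every array of the 5 lower temperatures lay below both 20 °C arrays, and both 8 °C arrays lay below all others. The share of all probe sets whose arrays separate in such ways was not counted, here or for MCCA and MCCB. These positions describe the arrays and are not a test. The slope of -0.40 ± 0.07 is a 0.756-fold signal per 10 °C of cooling (limma adjusted p = 0.00113). The A arrays alone gave -0.50 and the B arrays alone -0.31. The call was kept in all 24 fits that each left out 1 array, with adjusted p up to 0.0140. It was lost when the arrays were centred on bacterial and phage control transcripts (spike-in controls), a choice made after seeing the data, which gave -0.063 (limma adjusted p = 0.833).

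At single temperatures, IVD averaged 7.33 ± 0.09 at 8 °C and 7.89 ± 0.05 at 20 °C at 78 h (SD, n = 2 arrays each). The difference of -0.56 ± 0.09 (SE, 0.679-fold) passed (limma adjusted p = 0.00221), where 4.44% of probe sets fell, and it was kept in all 24 fits without 1 array. The 10 °C and 12 °C plants differed from the 20 °C plants by -0.33 ± 0.09 and -0.37 ± 0.09, which did not pass without the letter in the fit (limma adjusted p = 0.0687 and 0.105). With the letter as a block both passed (limma adjusted p = 0.0185 and 0.0246), where 7.85% of probe sets fell at 10 °C and 3.22% at 12 °C. The differences at 14 °C (-0.18) and 17 °C (-0.19) passed in neither fit. These comparisons share the 20 °C arrays. From high to low, the group means ran 7.89 at 20 °C, 7.70 at 14 °C, 7.70 at 17 °C, 7.56 at 10 °C, 7.52 at 12 °C and 7.33 at 8 °C, and no neighbours in this order differed past the test. The 8 °C plants also lay below the 17 °C plants, by -0.37 ± 0.09 (limma adjusted p = 0.0450, where 2.46% of probe sets fell), but this call was lost in 19 of 24 fits without 1 array, with adjusted p up to 0.459.

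At 6 h, IVD signals were 7.77 and 7.66 at 20 °C, 7.60 and 7.61 at 17 °C, 7.78 and 7.68 at 14 °C, 7.77 and 7.69 at 12 °C, 7.57 and 7.56 at 10 °C, and 7.74 and 7.54 at 8 °C. The arrays of 20, 14, 12 and 8 °C overlapped, and only those of 17 °C and 10 °C lay wholly below both 20 °C arrays. The slope of -0.05 ± 0.07 did not pass (limma adjusted p = 0.740), and 34.0% of all probe sets had a lower slope. Without the 8 °C B array the estimate was 0.00. Means ranged from 7.57 at 10 °C to 7.73 at 12 °C, and no pair of temperatures differed past the test with or without the block.

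The IVD slope at 78 h minus that at 6 h was -0.35 ± 0.09 (SE, 95% interval -0.55 to -0.15). It did not pass (limma adjusted p = 0.0730), in a comparison where 2.56% of probe sets were called and 1.15% were negative. With the letter as a block it passed (limma adjusted p = 0.0154), where 14.7% of probe sets were called and 6.88% were negative. It also passed without the 8 °C B array of 6 h (limma adjusted p = 0.0356) or without the 17 °C B array of 78 h (0.0346). With the arrays centred on the spike-in controls, the slope difference was -0.02 ± 0.32 and did not pass (limma adjusted p = 0.965). At 8 °C, IVD averaged 7.33 ± 0.09 at 78 h and 7.64 ± 0.14 at 6 h, a difference of -0.31 that passed only with the block (limma adjusted p = 0.0309, where 6.70% of probe sets were negative and called). At 20 °C the difference between harvests was 0.17 and passed in neither fit, like every other probe set there (0.00% called in both).

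MCCA carries the biotin of the carboxylase. At 78 h its signals were 8.01 and 7.84 at 20 °C, 7.90 and 7.84 at 17 °C, 8.05 and 7.70 at 14 °C, 7.71 and 7.83 at 12 °C, 7.43 and 7.40 at 10 °C, and 7.19 and 7.27 at 8 °C. The 4 arrays of 10 °C and 8 °C lay below all 8 arrays of the warmer groups. Both 12 °C arrays also lay just under both 20 °C arrays, while those of 17 °C and 14 °C overlapped them. The slope of -0.56 ± 0.13 is a 0.677-fold signal per 10 °C of cooling (limma adjusted p = 0.0119). Without the 20 °C A array of 78 h, or without the 8 °C A array, it did not pass (limma adjusted p = 0.0930 and 0.0553). Nor did it with the arrays centred on the spike-in controls (-0.22, limma adjusted p = 0.420). The quadratic contrast for a bend in the response was -0.79 ± 0.38 in log2 per squared 10 °C and did not pass (limma adjusted p = 0.936). Over all probe sets 0.0132% were called for it, and none of the 3 leucine genes was called at either harvest in limma, nor had an unadjusted p below 0.05.

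The difference of MCCA from 20 °C at 78 h was -0.06 at 17 °C, -0.05 at 14 °C and -0.16 at 12 °C. It was -0.51 ± 0.19 at 10 °C and -0.69 ± 0.19 at 8 °C (0.619-fold). Only the last passed without the block (limma adjusted p = 0.0373), and with the block the 10 °C difference passed as well (limma adjusted p = 0.0476). The 8 °C call was lost in 6 of 24 fits without 1 array, those without a 20, 10 or 8 °C array of that harvest, with adjusted p up to 0.259 without the 20 °C A array. In descending order the means were 7.93 at 20 °C, 7.87 at 14 °C, 7.87 at 17 °C, 7.77 at 12 °C, 7.41 at 10 °C and 7.23 at 8 °C, and no neighbours differed past the test.

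At 6 h, MCCA signals were 7.93 and 7.81 at 20 °C, 7.62 and 7.59 at 17 °C, 7.29 and 7.54 at 14 °C, 7.25 and 7.16 at 12 °C, 7.41 and 6.67 at 10 °C, and 7.25 and 6.89 at 8 °C. All 10 arrays of cooled plants lay below both 20 °C arrays, and the 2 arrays of 10 °C stood far apart. The slope of -0.72 ± 0.13 is a 0.609-fold signal per 10 °C of cooling (limma adjusted p = 0.00264), and 1.39% of all probe sets had a lower slope. It was kept in all 24 fits without 1 array, between -0.84 and -0.59, but not with spike-in centring (-0.70, limma adjusted p = 0.123). The A arrays gave -0.52 and the B arrays -0.91.

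The 10 °C plants differed from the 20 °C plants of 6 h in MCCA by -0.83 ± 0.19 (0.564-fold, limma adjusted p = 0.0156), where 3.75% of probe sets fell. The 8 °C plants differed by -0.80 ± 0.19 (0.576-fold, limma adjusted p = 0.0208), where 3.20% fell. The call at 10 °C was lost without either 20 °C array or the 10 °C B array, whose omission left -0.46 (limma adjusted p = 0.156). The call at 8 °C was lost without either 20 °C array or the 8 °C B array (limma adjusted p up to 0.152). At 12 °C the difference of -0.66 ± 0.19 passed only with the block (limma adjusted p = 0.0168, where 6.60% fell), and at 17 °C (-0.26) and 14 °C (-0.45) it passed in neither fit. From high to low the means ran 7.87 at 20 °C, 7.60 at 17 °C, 7.42 at 14 °C, 7.21 at 12 °C, 7.07 at 8 °C and 7.04 at 10 °C, and neighbours did not differ past the test.

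The MCCA slope at 78 h minus that at 6 h was 0.15 ± 0.19, with a 95% interval of -0.25 to 0.56 (limma adjusted p = 0.881). It did not pass with the block either. MCCA at 12 °C averaged 7.77 ± 0.09 at 78 h and 7.21 ± 0.06 at 6 h. That difference of 0.56 passed only with the block (limma adjusted p = 0.0468, where 4.70% of probe sets were positive and called). At 20 °C MCCA averaged 7.93 ± 0.13 at 78 h and 7.87 ± 0.08 at 6 h (SD, n = 2 arrays each).

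MCCB, the partner subunit, gave signals at 78 h of 9.57 and 9.71 at 20 °C, 9.57 and 9.60 at 17 °C, 9.49 and 9.53 at 14 °C, 9.50 and 9.78 at 12 °C, 9.30 and 9.67 at 10 °C, and 9.36 and 9.56 at 8 °C. The arrays of 17, 12 and 10 °C overlapped those of 20 °C, and the arrays of 14 °C and 8 °C lay just below both. The slope of -0.13 ± 0.15 did not pass in either fit (limma adjusted p = 0.690 without and 0.248 with the block), and neither did any difference from 20 °C. In order the means were 9.64 at 20 °C, 9.64 at 12 °C, 9.58 at 17 °C, 9.51 at 14 °C, 9.48 at 10 °C and 9.46 at 8 °C, and no neighbours differed past the test.

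At 6 h, MCCB signals were 9.41 and 9.77 at 20 °C, 9.37 and 9.62 at 17 °C, 9.07 and 9.56 at 14 °C, 8.94 and 9.43 at 12 °C, 8.99 and 9.12 at 10 °C, and 8.83 and 9.31 at 8 °C. Both arrays of 10 °C and of 8 °C lay below both 20 °C arrays, while at 12 °C the B array lay above the 20 °C A array. The slope was -0.49 ± 0.15, a 0.712-fold signal per 10 °C of cooling (limma adjusted p = 0.0486). The A arrays gave -0.51 and the B arrays -0.47. Without the letter in the fit the call sits at the threshold, and it was lost in 17 of 24 such fits without 1 array, with adjusted p up to 0.286 without the 20 °C B array of 6 h. It was kept without either 14 °C array, the 17 °C A, the 12 °C B or the 8 °C B array of 6 h, and without either 10 °C array of 78 h. None of these fits without 1 array held the letter, so the group that lost an array was left with 1 letter. For MCCB the B array lay above the A array in 12 of 12 groups. With the letter as a block and all arrays, the limma adjusted p of the slope was 0.00032, where 14.7% of probe sets fell. With the block in the arrays of 6 h alone, the limma adjusted p was 0.00081. The A arrays alone gave a limma adjusted p of 0.000693 and the B arrays alone 0.00666, which measure the scatter of 1 array per temperature around a line. With the arrays centred on the spike-in controls the slope was -0.48 ± 0.29 and did not pass.

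No single temperature differed from 20 °C in MCCB at 6 h without the block. With it, the differences passed at 12 °C (-0.40, limma adjusted p = 0.0290), 10 °C (-0.54, 0.00333) and 8 °C (-0.52, 0.00463), where 6.60%, 11.1% and 9.87% of probe sets fell. Means ran 9.59 at 20 °C, 9.50 at 17 °C, 9.32 at 14 °C, 9.19 at 12 °C, 9.07 at 8 °C and 9.05 at 10 °C, and neighbours did not differ past the test in either fit.

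The MCCB slope at 78 h minus that at 6 h was 0.36 ± 0.21, with a 95% interval of -0.09 to 0.81 (limma adjusted p = 0.571). With the block it passed (limma adjusted p = 0.0455, where 7.87% of probe sets were positive and called). With the block, MCCB was also higher at 78 h than at 6 h at 12 °C (0.45, limma adjusted p = 0.0207), 10 °C (0.43, 0.0180) and 8 °C (0.38, 0.0344), where 4.70%, 9.29% and 6.62% of probe sets were positive and called. None of the 3 passed without the block, and at 20 °C the difference was 0.05.

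The A and B arrays differed in MCCB more regularly than in the other 2 genes. The B array lay above the A array in 12 of 12 groups, by 0.03 to 0.49, and the fitted difference was 0.27 ± 0.05 (limma adjusted p = 0.000137). For MCCA the B array was higher in 3 of 12 groups (fitted difference -0.12 ± 0.07, limma adjusted p = 0.129). For IVD it was higher in 3 of 12 as well (-0.04 ± 0.04, limma adjusted p = 0.315). The share of all probe sets with such a letter difference was not counted. Across probe sets, the B minus A differences correlated between 0.52 and 0.89 in all pairs of groups. A regular offset between letters is therefore not read as particular to MCCB. What the letters stand for is not given in the labels, and the part of the letter in these results was not tested beyond the block.

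**Figure D2:**
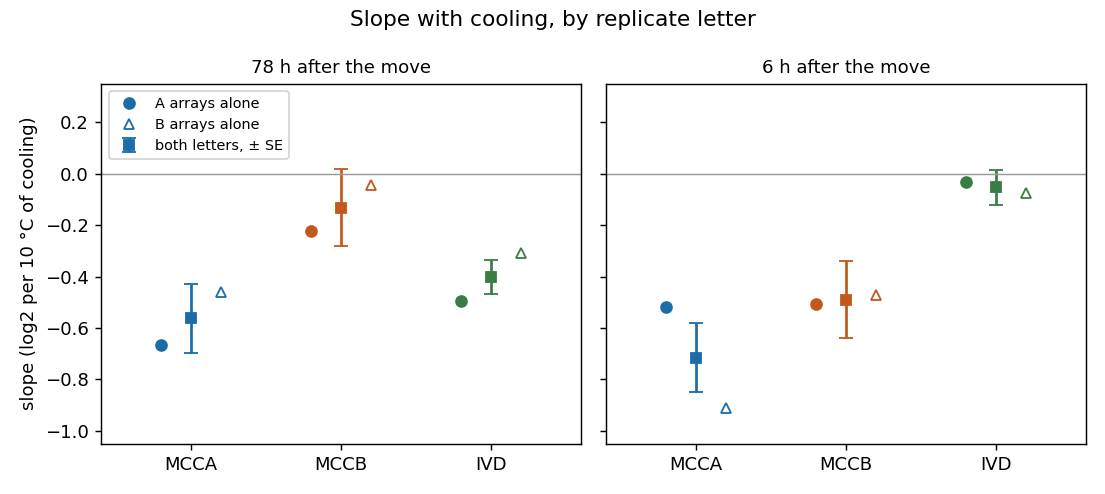
Slope of each gene in log2 per 10 °C of cooling (vertical axis) at 78 h (left) and 6 h (right). Squares with bars are both letters ± SE, filled circles the A arrays alone and open triangles the B arrays alone. MCCA at 6 h shows the widest gap between letters, -0.52 and -0.91.

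The signals of bacterial and phage control transcripts also moved at 78 h. They were read by 18 probe sets, several for each of bioB, bioC, bioD and cre, so these are not 18 separate controls. All 18 such probe sets had negative slopes at 78 h, from -0.63 to -0.15 with a median of -0.30, and their mean signal was 9.06 at 8 °C and 9.42 at 20 °C. At 6 h, 11 of 18 were negative, from -0.10 to 0.06 with a median of -0.02. None passed the test at either harvest in limma (5 at 78 h and 0 at 6 h had an unadjusted p below 0.05), and 4 passed at 78 h with the block. When each array was centred on these controls, a choice made after seeing the data, no slope of the 3 genes passed. At 78 h the centred slopes were -0.06 for IVD, -0.22 for MCCA and 0.21 for MCCB, and at 6 h -0.04, -0.70 and -0.48. Their SE was larger after centring, at each harvest alike. It was 0.23 for IVD, 0.22 for MCCA and 0.29 for MCCB, against 0.07, 0.13 and 0.15 before. The centring shifts every slope of a harvest by the same amount, 0.34 at 78 h and 0.01 at 6 h, and the median over all probe sets at 78 h was then 0.36. Of the 6 rosette markers, 5 fell at 78 h (median slope -0.32), where 6.78% of all probe sets fell, and none passed at 6 h in limma (1 with an unadjusted p below 0.05, median 0.06). With spike-in centring their median at 78 h was 0.02, and 2 of 6 slopes were negative. PYK10 fell at 78 h with a slope of -1.54 ± 0.21 (limma adjusted p = 0.000228) and had -0.06 ± 0.21 at 6 h. The log2 gap between the 3' and 5' control probe sets had a slope of -0.11 at 78 h and -0.02 at 6 h for GAPDH, and of -0.26 at 78 h and 0.01 at 6 h for actin. Over arrays this gap ran from 1.64 to 2.85 at 78 h and from 2.06 to 2.87 at 6 h for actin. For GAPDH it ran from 0.41 to 0.79 at 78 h and from 0.26 to 1.01 at 6 h. The part of these controls and markers in the slopes of the 3 genes was not tested.

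Differences between the genes within an array do not move with a shift that is equal for all probe sets. A shift that varies with signal level can move them, which was not tested for the pairs. Mean signals were 9.42 for MCCB, 7.52 for MCCA and 7.64 for IVD. The slopes of the differences were compared by exact permutation of the temperatures within each letter (two-sided, 518400 arrangements, adjusted over 3 pairs and 2 harvests). At 78 h the slope of MCCA was lower than that of MCCB by -0.43 (exact permutation, adjusted p = 0.00926), negative on both letters and kept in 12 of 12 fits without 1 array. MCCA and IVD differed by -0.16 at 78 h (exact permutation, adjusted p = 0.292). MCCB minus IVD was 0.27 (exact permutation, adjusted p = 0.0467), a call kept in only 3 of 12 fits without 1 array: those without the 10 °C A, 14 °C B or 17 °C B array.

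At 6 h the slopes of both carboxylase subunits lay below that of IVD. MCCA minus IVD was -0.66 and MCCB minus IVD -0.44 (exact permutation, adjusted p = 0.00722 for each), and both were kept in 12 of 12 fits without 1 array. MCCA minus MCCB was -0.23 at 6 h (exact permutation, adjusted p = 0.0719), with -0.01 on the A arrays and -0.44 on the B arrays. It passed without the 8 °C A or the 17 °C A array of that harvest (exact permutation, adjusted p = 0.0373 for each).

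The 2 subunits of the carboxylase correlated across arrays of one letter, which differ in temperature and harvest. Over the 12 A arrays, MCCA and MCCB had r = 0.80 (permutation, adjusted p = 0.00975) and rho = 0.80 (permutation, adjusted p = 0.0140). Over the 12 B arrays, r was 0.90 (permutation, adjusted p = 0.00084) and rho 0.76 (permutation, adjusted p = 0.0161). Without the 2 arrays farthest from the MCCA median, r was 0.75 on the A arrays and 0.69 on the B arrays. Over all 24 arrays r was 0.59 and rho 0.58 (permutation, unadjusted p = 0.00221 and 0.00319). The B minus A differences of the 12 groups, which take out the group means, gave r = 0.35 as a description. The temperature series is part of each r across arrays, and the p-values within letters were adjusted over 3 pairs and 2 letters. Within one harvest (6 arrays), r was 0.84 at 78 h and 0.91 at 6 h on the A arrays, and 0.42 at 78 h and 0.99 at 6 h on the B arrays. Only the last passed (exact permutation, adjusted p = 0.0167 over 12 values).

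IVD did not correlate with either subunit past the test. With MCCA, r was 0.40 on the A arrays (rho 0.38) and 0.38 on the B arrays (rho 0.31), each with a permutation adjusted p of 0.345 for r. With MCCB, r was -0.02 on the A arrays and 0.16 on the B arrays (permutation, adjusted p = 0.958 and 0.736), and rho was 0.26 and 0.02.

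**Figure D3:**
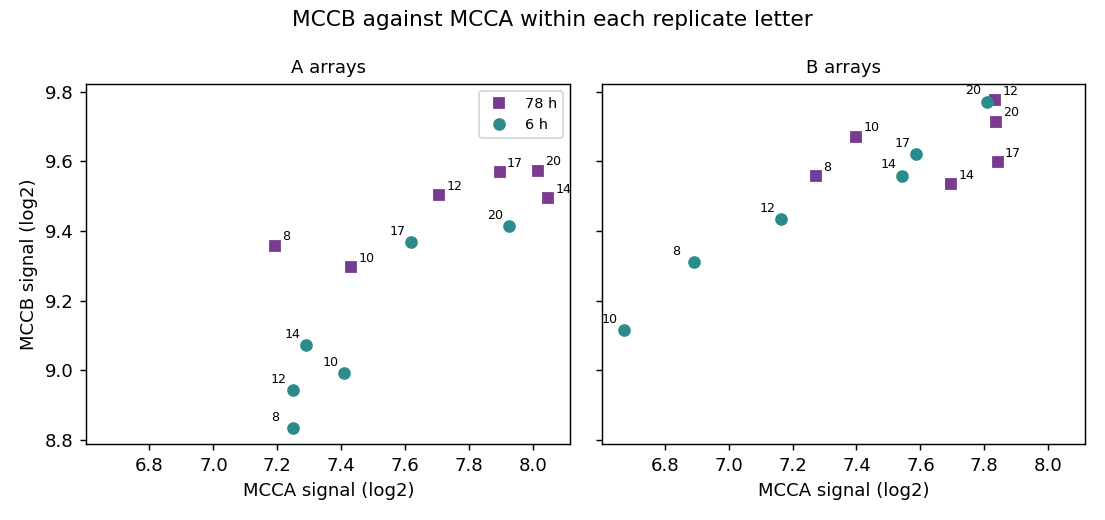
Log2 signal of MCCB (vertical axis) against MCCA (horizontal axis), with the A arrays left and the B arrays right. Squares are 78 h, circles 6 h, and the small numbers give the temperature in °C. Signals rise together within each letter, r = 0.80 and 0.90, and the coldest 6 h arrays lie at the lower left.

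The other entries of the branched-chain breakdown list had 8 measured genes out of 18. None rose and 1 fell at 78 h, and none rose and 2 fell at 6 h, in limma (at an unadjusted p below 0.05, 0 rose and 2 fell at 78 h, and 0 rose and 4 fell at 6 h). Over all probe sets 5.31% rose and 6.78% fell at 78 h, and 4.90% rose and 6.15% fell at 6 h. With the block, 2 of the 8 rose and 3 fell at 78 h (14.4% and 15.1% of all probe sets), and 1 rose and 5 fell at 6 h (12.2% and 14.7%). The list's median slope was -0.12 at 78 h and -0.25 at 6 h. With spike-in centring the median was 0.22 at 78 h and -0.24 at 6 h, and no slope of the list was negative at 78 h. Among genes that the platform annotation names only by locus code, AT4G20930 fell at both harvests. Its slopes were -0.33 ± 0.07 at 78 h (limma adjusted p = 0.00664) and -0.37 ± 0.07 at 6 h (0.00328). Its 78 h call was lost without the 20 °C A array (limma adjusted p = 0.0625). AT4G16800 fell at 6 h, -0.44 ± 0.12 (limma adjusted p = 0.0293), and had 0.08 ± 0.12 at 78 h. That call was lost in 4 of 24 fits, without the 20 °C B, 17 °C B, 10 °C A or 8 °C A array of 6 h, with adjusted p up to 0.270. AT5G09300 had -0.16 ± 0.23 at 78 h and -0.52 ± 0.23 at 6 h, and fitting the letter let the second pass (limma adjusted p = 5.6e-05 against 0.192 without it). AT4G31810 had 0.40 ± 0.24 at 78 h (limma adjusted p = 0.349, or 0.000433 once the letter was fitted) and -0.25 ± 0.24 at 6 h.

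The electron-transfer flavoprotein takes the electrons that IVD removes. All 4 genes on the electron transfer list were measured and all had negative slopes at both harvests, with medians of -0.31 at 78 h and -0.37 at 6 h. At 78 h, 2 of 4 fell in limma (6.78% of all probe sets), and at 6 h 3 of 4 (6.15%). With the block all 4 fell at both harvests, where 15.1% and 14.7% of all probe sets fell. ETFALPHA, a subunit of the electron-transfer flavoprotein, fell by slopes of -0.28 ± 0.06 at 78 h (limma adjusted p = 0.00563) and -0.26 ± 0.06 at 6 h (0.00931). ETFBETA, the partner subunit, had -0.19 ± 0.07 at 78 h (limma adjusted p = 0.0810) and fell by -0.38 ± 0.07 at 6 h (0.00175). ETFQO, the oxidoreductase to ubiquinone, had -0.34 ± 0.12 at 78 h and -0.40 ± 0.12 at 6 h (limma adjusted p = 0.0982 and 0.0543). D2HGDH, a 2-hydroxyglutarate dehydrogenase that uses the same flavoprotein, fell by -0.49 ± 0.08 at 78 h (limma adjusted p = 0.000711) and -0.36 ± 0.08 at 6 h (0.00643). With spike-in centring the list's median was 0.03 at 78 h and -0.36 at 6 h, and 2 of the 4 slopes at 78 h were then negative.

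**Figure D4:**
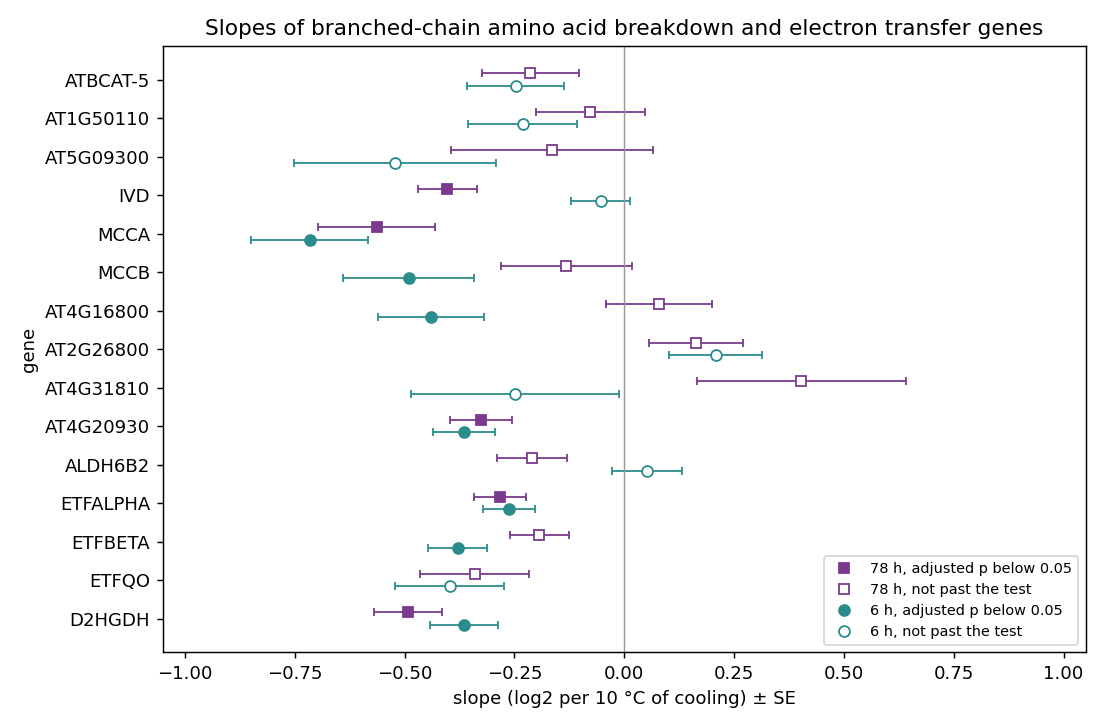
Slopes in log2 per 10 °C of cooling ± SE (horizontal axis) of the measured genes of branched-chain amino acid breakdown and electron transfer (vertical axis). Squares are 78 h and circles 6 h, filled where the limma adjusted p was below 0.05. All 4 electron transfer genes, at the bottom, lie left of 0 at both harvests, and IVD does so past the test at 78 h alone.

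Genes outside the pathway gave context. Of 29 entries on the sugar-starvation list 5 were measured, with medians of -0.29 at 78 h (0.05 with spike-in centring) and -0.20 at 6 h. In limma 1 of the 5 fell at each harvest and none rose, where 6.78% of all probe sets fell at 78 h and 6.15% at 6 h. With the block 1 rose and 2 fell at 78 h (14.4% and 15.1% of all probe sets), and none rose and 3 fell at 6 h (14.7% fell). AKINBETA1, a regulatory subunit of the SnRK1 energy-sensing kinase, fell with slopes of -0.90 ± 0.17 at 78 h (limma adjusted p = 0.00296) and -1.21 ± 0.17 at 6 h (0.000321). The other 4, which did not pass without the block, were EXO (-0.32 at 78 h and -0.46 at 6 h), AT3G15450 (-0.29 and 0.22), BZIP53 (0.03 and 0.16) and ATL8 (0.21 and -0.20). Of 14 entries for breakdown of other amino acids 3 were measured, with medians of -0.26 at 78 h (0.08 with spike-in centring) and 0.31 at 6 h. In limma 1 rose and none fell at 6 h, where 4.90% of all probe sets rose. None passed at 78 h (1 fell at an unadjusted p below 0.05). With the block none rose and 1 fell at 78 h (15.1% of all probe sets fell), and 1 rose and 1 fell at 6 h (12.2% and 14.7%). MGL, methionine gamma-lyase, rose at 6 h with a slope of 0.48 ± 0.08 (limma adjusted p = 0.00122) and had 0.15 ± 0.08 at 78 h. LKR/SDH, the bifunctional enzyme that starts lysine breakdown, had -0.53 ± 0.19 at 78 h and -0.39 ± 0.19 at 6 h. Both needed the letter in the fit to pass (limma adjusted p = 0.00128 and 0.0118). AT5G38710 had -0.26 ± 0.38 at 78 h and 0.31 ± 0.38 at 6 h, past the test in neither fit.

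Of 14 entries for synthesis of the branched-chain amino acids 3 were measured, with medians of 0.13 at 78 h and -0.30 at 6 h (0.47 and -0.29 with spike-in centring). In limma 1 rose and 1 fell at 78 h (5.31% and 6.78% of all probe sets), and none rose and 1 fell at 6 h (6.15% fell). With the block 2 rose and 1 fell at 78 h (14.4% and 15.1% of all probe sets), and none rose and 2 fell at 6 h (14.7% fell). AT2G31810 fell at both harvests, -0.37 ± 0.07 at 78 h (limma adjusted p = 0.00282, -0.03 with spike-in centring) and -0.31 ± 0.07 at 6 h (0.00933). Its 6 h call was lost without the 20 °C A array of 6 h (limma adjusted p = 0.0900). AT3G23940 rose at 78 h, 0.38 ± 0.11 (limma adjusted p = 0.0354, 0.72 with spike-in centring), and had -0.30 ± 0.11 at 6 h. That call was lost in 6 of 24 fits, without the A array of 20, 17, 12, 10 or 8 °C or the 8 °C B array of 78 h (adjusted p up to 0.246). AT3G58610 had 0.13 ± 0.06 at 78 h and -0.05 ± 0.06 at 6 h. Its 78 h slope passed only with the block (limma adjusted p = 0.0183), and its 6 h slope in neither fit. The 10 entries for biotin synthesis and other biotin enzymes had no single-gene probe set and were not analysed here.

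By likeness of their 12 group means, 3 probe sets were named for each gene out of 3306 candidates whose means spanned at least 0.5 log2. These correlations describe groups that share temperatures and harvests. MCCA was most like AT4G19860 (r = 0.989), AT3G15630 (0.988) and AT3G59300 (0.988), which had negative slopes at both harvests. MCCB was most like TBL35 (r = 0.982), AT2G34620 (0.982) and the thiamin synthesis gene THIC (0.981). These had slopes of -0.11, -0.87 and -0.16 at 78 h, against -0.46, -2.33 and -0.54 at 6 h. IVD was most like ENGase85A (r = 0.914), AT2G07180 (0.909) and AT2G20725 (0.907), with slopes of -0.60, -0.61 and -0.59 at 78 h, against -0.11, -0.12 and -0.20 at 6 h. Between the leucine genes themselves, the 12 group means correlated at 0.90 for MCCA and MCCB, 0.45 for MCCA and IVD and 0.11 for MCCB and IVD.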

How the data were processed

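The authors deposited 1 table of signals on the log2 scale for 24 arrays; the base was inferred from the top value of 14.81 and is not stated. No normalization method, background correction or software is given in the sources used here, and the deposited values were kept. The table held 22810 probe sets: 22746 for plants, all of which were tested, and 64 controls. Of the plant probe sets, 13513 listed 1 gene in the platform annotation (13350 genes), 503 several and 8730 none; 13436 of the 13513 matched the TAIR10.1 gene table. The files name no genome build, so no coordinates are given, and gene sequences were not analysed here.

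Groups came from the labels. The model was limma 3.58.1 (R 4.3.3), lmFit and eBayes with 12 residual degrees of freedom, Benjamini-Hochberg adjusted over all probe sets. On simulated data the check was that mean slope estimates lay near the set slopes, and the p-values do not rest on it. The number of arrays, 2 per group, limits the precision. Differences between A and B arrays correlated across probe sets between 0.52 and 0.89 in all 66 pairs of groups (median 0.67), so the letter pairs the arrays, and a second fit held it as a block (11 residual degrees of freedom). Further alternatives were cyclic loess, median centring, a filter on the dimmest 25% of probe sets, trend and robust moderation, array weights, each harvest alone, regression on temperature, each letter alone and each array left out; spike-in centring was added after the data were seen. The limma fits without 1 array did not hold the letter. Correlations used 100000 resamples.

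The members and the gene lists were chosen with earlier results of these data known. Named genes were the 3 members, list genes past the test at either slope or among the 4 largest slopes of a list, and the 3 probe sets most like each member.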

Additional observations from a re-analysis of the deposited data

Results flagged for a closer look

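Among the 32 listed genes tested outside the 3 members, 5 had slopes with cooling that differed between the harvests by limma's test of the difference (78 h minus 6 h, log2 per 10 °C of cooling), where 2.56% of all probe sets were called. AT3G23940, from the branched-chain synthesis list, had a difference of 0.68 ± 0.15 (SE, limma adjusted p = 0.0326), lost in 11 of 24 fits without 1 array. The antenna gene LHCB4.2 had -0.78 ± 0.16 (limma adjusted p = 0.0228), lost in 5 of 24. The photosystem I genes PSAN and PSAE-1 had -0.43 ± 0.08 and -0.31 ± 0.07 (limma adjusted p = 0.00979 and 0.0294), the first kept in all 24 fits and the second lost in 10. The root marker PYK10 had -1.48 ± 0.29 (limma adjusted p = 0.0171), lost in 2 of 24. Spike-in centring moved all differences by 0.33, to 1.005 for AT3G23940, -0.45 for LHCB4.2, -0.11 for PSAN, 0.02 for PSAE-1 and -1.15 for PYK10.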

How the results depend on the processing

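The letter as a replicate block changed no estimate and kept the direction of every call. It raised the number of probe sets called to 6711 at 78 h (2750 without), 6131 at 6 h (2513 without) and 3354 for the difference (583 without), and added the slope differences of MCCB (0.36) and IVD (-0.35). MCCB at 6 h (-0.49) lost its call with median centring (-0.49, limma adjusted p = 0.0771), cyclic loess (-0.44, 0.0631), trend and robust moderation (-0.49, 0.0526), array weights (-0.49, 0.0553), each harvest alone (-0.49, 0.175) and spike-in centring (-0.48). None of these fits held the letter. Each harvest alone with the block kept the call (limma adjusted p = 0.00081). MCCA at 78 h lost it on the B arrays alone (-0.46, limma adjusted p = 0.0573). MCCA at 8 °C against 20 °C at 78 h lost it with cyclic loess (limma adjusted p = 0.0531). The IVD difference passed with regression on temperature (-0.35, limma adjusted p = 0.0442) and on the A arrays alone (-0.46, 0.0346), and the MCCA difference was -0.15 on the A arrays. With spike-in centring the slope difference was -0.02 for IVD (limma adjusted p = 0.965), 0.48 for MCCA and 0.69 for MCCB (0.654 for each). Spike-in centring gave slopes of -0.22 for MCCA (limma adjusted p = 0.420), -0.063 for IVD (0.833) and 0.21 for MCCB (0.562) at 78 h and -0.70 for MCCA at 6 h (0.123). It left 400 called at 78 h (47 fell and 353 rose, against 1542 and 1208 before), 421 at 6 h (126 fell and 295 rose, against 1399 and 1114) and 10 for the difference. Each harvest alone called 1458 at 6 h, and with the block 7908 at 78 h and 6292 at 6 h; regression called 882 for the difference. The cause was not tested. Slope differences between genes on the A arrays alone were -0.44 (MCCA minus MCCB) and 0.28 (MCCB minus IVD) at 78 h, and -0.49 (MCCA minus IVD) and -0.48 (MCCB minus IVD) at 6 h, none past the exact permutation test. On the B arrays alone they were -0.42 (MCCA minus MCCB) and 0.27 (MCCB minus IVD) at 78 h. At 6 h the B arrays gave -0.84 (MCCA minus IVD) and -0.44 (MCCA minus MCCB), each past the test, and -0.40 (MCCB minus IVD). The 6 arrays of a letter give far fewer arrangements. Leaving out 1 array moved the slopes between -0.62 and -0.50 (MCCA, 78 h), -0.20 and -0.07 (MCCB, 78 h), -0.45 and -0.36 (IVD, 78 h), -0.84 and -0.59 (MCCA, 6 h), -0.62 and -0.36 (MCCB, 6 h), and -0.11 and 0.0012 (IVD, 6 h). The differences 78 h minus 6 h moved between 0.02 and 0.28 (MCCA), 0.23 and 0.49 (MCCB), and -0.40 and -0.29 (IVD). MCCA minus MCCB at 6 h moved between -0.30 and -0.18, and MCCB minus IVD at 78 h between 0.23 and 0.32. The number called moved between 1460 and 2808 at 78 h (1460 and 1708 without the 20 °C A and 8 °C A arrays of 78 h), 1473 and 2554 at 6 h (1473 and 1697 without the 20 °C B and 8 °C A arrays of 6 h), and 238 and 852 for the difference. With 2 arrays per group, differences of single temperatures near 0.5 log2 passed for some genes only with the block.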
